A study of Mus musculus with 2 samples.

Results

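The 9 mouse miRNAs described here are a superfamily of related seeds, led by miR-15, miR-16, miR-103 and miR-107, plus miR-322-3p, whose seed is unrelated. They were chosen by name, with earlier results of these data known: mmu-miR-15a-5p, mmu-miR-15b-5p, mmu-miR-16-5p, mmu-miR-195a-5p, mmu-miR-322-5p, mmu-miR-322-3p, mmu-miR-497a-5p, mmu-miR-103-3p and mmu-miR-107-3p, written without the mouse prefix from here on. Of these 9 names, 8 are among the 677 entries with miRBase names in a table of 2083 entries. miR-322-5p is not among the entries of the table analysed here, so it has no value in either library. Small RNA was sequenced from exosomes, the small membrane vesicles that cells release, shed in culture by pancreatic islets of C57BL/6 mice. The 2 libraries are NCD, from mice on a normal chow diet with 4% fat, and HFD, from mice on a high-fat diet with 60% fat. In both groups the islets were kept for a week in medium freed of serum exosomes, and vesicles were pelleted by ultracentrifugation from medium collected every day. The age and sex of the mice, the time on the diet and the number of animals behind each library are not stated in the labels. With 1 library per diet there is no replicate, no spread between animals and no test between diets: each difference is between these 2 libraries.

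A miRNA guides an Argonaute protein to messenger RNAs, mostly through its seed, bases 2 to 8 counted from the 5′ end. miRNAs with the same seed can repress overlapping sets of targets. miR-15 and miR-16 are known for restraining the cell cycle and for repressing the survival gene Bcl2, and their locus in the Dleu2 gene is lost in many human chronic lymphocytic leukaemias. miR-15a, miR-15b, miR-16 and miR-195 have been tied to silencing of the endocrine progenitor factor Ngn3 in regenerating mouse pancreas. miR-103 and miR-107 lie in introns of pantothenate kinase genes, which make coenzyme A, and are known as regulators of insulin sensitivity in liver and fat of obese mice. Targets and their protein levels were not measured in these data.

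The mature sequences show how the members divide. They are RefSeq sequences (GRCm38.p6), which cover all 9 names, printed 5′ to 3′ with bases 2 to 8 in capitals.
miR-15a-5p: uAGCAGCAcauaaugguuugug
miR-15b-5p: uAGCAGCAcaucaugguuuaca
miR-16-5p: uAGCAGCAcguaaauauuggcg
miR-195a-5p: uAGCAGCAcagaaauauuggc
miR-497a-5p: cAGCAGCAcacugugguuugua
miR-322-5p: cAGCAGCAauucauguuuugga
miR-103-3p: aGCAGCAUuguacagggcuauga
miR-107-3p: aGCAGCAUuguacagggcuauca
miR-322-3p: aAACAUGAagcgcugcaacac
The first 6 share the seed AGCAGCA and are called the miR-15/16 seed group below. miR-103-3p and miR-107-3p carry the seed GCAGCAU. All 8 of these hold the letters AGCAGC, but these start at base 2 in the first group and at base 1 in miR-103-3p and miR-107-3p, so the seed windows are shifted by 1 base. miR-322-3p, the other arm of the miR-322 hairpin, has the unrelated seed AACAUGA and belongs to the set through its hairpin.

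Several members are close copies of each other, which matters for how reads are assigned. miR-103-3p and miR-107-3p match at 22 of 23 bases and differ by G22C, with miR-103-3p first and positions counted from the 5′ end. A read that stops before that base cannot tell them apart. miR-16-5p and miR-195a-5p match at 19 of the 21 bases compared and differ by G10A and U11G. miR-15a-5p and miR-15b-5p match at 18 of 22 bases. The labels do not say how reads with several matches were counted, so values of miR-103-3p and miR-107-3p are also given as a sum. miR-199a-3p and miR-199b-3p have the same values in both libraries, at 134 and 184 CPM, so a read may have been counted under several entries. If so, the sum may hold reads that match both miR-103-3p and miR-107-3p more than once, which was not tested.

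The members come from 7 places in the genome, and some are made from a pair of hairpins. The GRCm38 positions are those of the GENCODE M21 hairpin genes. Mir15b (chr3:69009772-69009835, plus strand) and Mir16-2 (chr3:69009902-69009996, plus strand) lie side by side in an intron of Smc4, a condensin subunit gene. Mir16-1 (chr14:61631880-61631972, minus strand) and Mir15a (chr14:61632027-61632110, minus strand) lie in the long non-coding RNA gene Dleu2, with Mir16-1 overlapping an exon and Mir15a in an intron. miR-16-5p is identical from both of its hairpins. miR-103-3p is made by Mir103-1 (chr11:35782396-35782481, plus strand) in an intron of Pank3 and by Mir103-2 (chr2:131288052-131288137, plus strand) in an intron of Pank2. Mir107 (chr19:34820687-34820773, minus strand) lies in an intron of Pank1. Mir497 (chr11:70234717-70234800, plus strand) and Mir195a (chr11:70235042-70235135, plus strand) are neighbours. No annotated gene was found to span either of them, in a search that left out miRNA genes. Mir322 (chrX:53054255-53054349, minus strand) heads a group of 7 hairpins within 6353 bases, and the same search found no gene that spans them.

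The counts of the whole table summed to 2417589 in NCD and to 2020831 in HFD. Levels are counts per 1000000 counts of the library (CPM), which equal the deposited TPM values and are not scaled by length. The members are 21 to 23 bases long. A count of 0 allows up to 1.24 CPM in NCD and 1.48 CPM in HFD (3 counts). Entries with at least 10 counts in either library are called measured, and are called higher or lower where log2((HFD CPM + 1)/(NCD CPM + 1)) is at least 1 either way. Ratios without the added 1 CPM carry a 95% exact counting interval, which covers counting error only. The labelled source was checked against its miRNAs: all 9 islet endocrine markers, led by miR-375-3p, were listed, and their summed level was 88173 CPM in NCD and 91491 CPM in HFD. The summed level of 2 hepatocyte miRNAs was higher still in both, at 321172 and 242007 CPM, and all 5 red blood cell miRNAs were listed, with 124691 and 98937 CPM. Nearly all of that sum was miR-486a-5p and miR-486b-5p, with ratios of 0.741 and 0.722, whereas the other 3 had ratios above 1: 1.87 for miR-451a (1.83 to 1.90), 1.51 for miR-144-3p (1.16 to 1.98) and 1.15 for miR-144-5p (1.03 to 1.29). All 4 leukocyte miRNAs were listed, at 1571 and 2301 CPM, and all 3 acinar miRNAs, at 84.4 and 249 CPM. The part of these other cell types in the levels below was not tested.

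The seed superfamily was a minor component of both libraries. The 7 seed-carrying members that were listed summed to 1519 counts in NCD and 1298 in HFD. This came to 628 and 642 CPM. Their summed ratio was 1.02 (0.949 to 1.10), so the counting interval spans 1. Behind that near-equal total the 2 seed groups went in opposite directions. The miR-15/16 seed group had 473 and 561 counts, or 196 and 278 CPM, a ratio of 1.42 (1.25 to 1.61). miR-103-3p and miR-107-3p together had 1046 and 737 counts, or 433 and 365 CPM, a ratio of 0.843 (0.766 to 0.927). The first ratio divided by the second was 1.68 (1.44 to 1.97), a value that no scaling between the libraries can alter. Both directions held under every scaling tried, with log2 ratios from 0.25 to 0.50 for the miR-15/16 seed group and from -0.50 to -0.25 for miR-103-3p with miR-107-3p. The lowest value of each range came with median-of-ratios factors, which were 1 in both libraries and so did not correct for the totals. Neither group passed 2-fold. The median log2 ratio over all 387 measured named miRNAs was also above 0, at 0.33. Their counting intervals lay wholly above 1 for 47.5% and wholly below 1 for 25.3%. A ratio above 1 is thus not particular to the miR-15/16 seed group. miR-16-5p, with 309 and 373 counts, made up most of that group's sum, and the interval of miR-15b-5p spans 1.

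**Figure D1:**
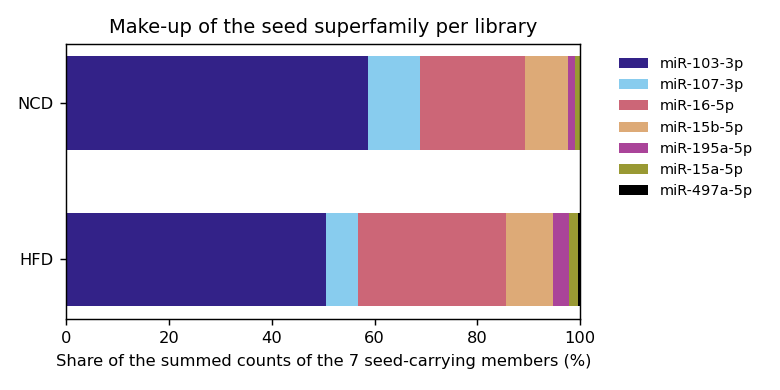
Share (%) of each of the 7 seed-carrying members in their summed counts, 1519 in NCD and 1298 in HFD, as stacked bars. miR-103-3p and miR-107-3p filled 68.9% of the NCD bar and 56.8% of the HFD bar.

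The same shift shows in the make-up of the superfamily. miR-103-3p and miR-107-3p took 68.9% of its counts in NCD (95% exact binomial interval 66.5 to 71.2) and 56.8% in HFD (54.0 to 59.5). miR-103-3p alone took 58.7% (56.1 to 61.1) and 50.5% (47.8 to 53.3), and miR-107-3p 10.2% (8.73 to 11.8) and 6.24% (4.99 to 7.70). miR-16-5p took 20.3% in NCD (18.3 to 22.5) and 28.7% in HFD (26.3 to 31.3). The share of miR-15b-5p was 8.43% (7.08 to 9.94) in NCD and 9.24% (7.72 to 11.0) in HFD, with overlapping intervals. miR-195a-5p took 1.45% (0.910 to 2.18) and 3.005% (2.15 to 4.08), with intervals that just overlap. miR-15a-5p took 0.922% and 1.77%, and miR-497a-5p 0 and 0.462%.

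**Figure D2:**
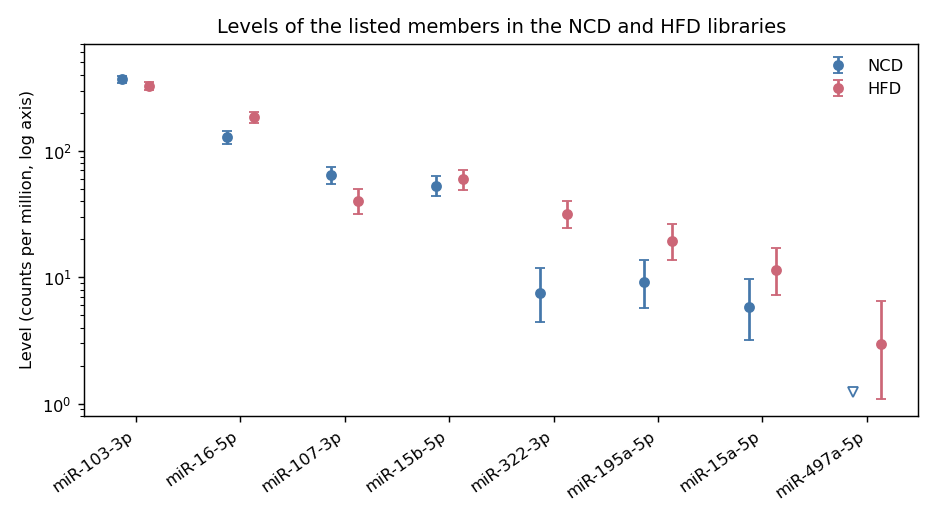
Level of each listed member in CPM on a log axis, NCD in blue and HFD in red, with 95% exact Poisson intervals that cover counting error only. The open triangle marks miR-497a-5p in NCD, with 0 counts, at the 1.24 CPM that a count of 0 allows, and miR-103-3p stands highest at 369 and 325 CPM.

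miR-103-3p was the most abundant member, at 891 and 656 counts. Its level was 369 CPM (95% exact Poisson interval 345 to 394) and 325 CPM (300 to 350), and it ranked 89 and 104 among the 677 named miRNAs. Its ratio was 0.881 (0.795 to 0.975). miR-107-3p had 155 and 81 counts, or 64.1 and 40.1 CPM, and was 1.60-fold lower in HFD (1.21 to 2.12). Its log2 ratio of -0.66 did not reach the 2-fold rule, and its rank was 155 in NCD and 207 in HFD. In the authors' deposited table, miR-107-3p had a log2 fold change of -0.83 and an FDR of 0.0309, and miR-103-3p had -0.33 and 0.334. These FDR values rest on an assumed spread, since there is 1 library per diet.

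The near-identical miRNAs were thus lower in HFD by unequal amounts. For each count of miR-107-3p the files hold more counts of miR-103-3p in HFD than in NCD, as the shares above show. When the pair is summed, the log2 ratio is -0.25 in place of -0.66 for miR-107-3p and -0.18 for miR-103-3p. The difference between them rests on a base near the 3′ end, and the part of read assignment in it was not tested.

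miR-16-5p led the miR-15/16 seed group, at 309 and 373 counts. Its level was 128 CPM (114 to 143) in NCD and 185 CPM (166 to 204) in HFD. The ratio was 1.44 (1.24 to 1.68) and its log2 ratio 0.53, above the median of 0.33 over all 387 measured named miRNAs but within 2-fold. It stood above 59.9% of them. miR-16 is also abundant in red blood cells, whose marker miRNAs went both ways without passing 2-fold. As given above, ratios were above 1 for 3 of these 5 marker miRNAs and below 1 for the most abundant 2. The part of red blood cells in the level of miR-16-5p was not tested. miR-15b-5p, from the hairpin next to Mir16-2, had 128 and 120 counts, or 52.9 and 59.4 CPM, a ratio of 1.12 (0.867 to 1.45). This interval spans 1, and the log2 ratio of 0.16 was negative after the trend in GC content was removed. It was also negative under median-of-ratios scaling, whose factors of 1 leave the 128 and 120 counts uncorrected for the library totals. miR-15a-5p, the counterpart from Dleu2, was rare at 14 and 23 counts, or 5.79 and 11.4 CPM. Its ratio of 1.97 (0.969 to 4.13) allows either direction.

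The 2 miRNAs of the Mir497 and Mir195a pair, which are known for restraining the cell cycle in heart and skeletal muscle, were both low. miR-195a-5p was read 22 times in NCD and 39 times in HFD, at 9.10 and 19.3 CPM. It was 2.12-fold higher (1.23 to 3.76), and its log2 ratio of 1.007 lay just past the rule. It came within 2-fold under TMM or median-of-ratios scaling, with totals that leave out the 5 most abundant miRNAs, with a pseudocount of 10 CPM and with the GC trend removed, and also when its counts were added to those of the near-identical miR-16-5p, where the log2 ratio was lowest, at 0.57. miR-497a-5p had 0 counts in NCD and 6 in HFD, which is under the count minimum. Set against 3 counts in the NCD library it was 2.39-fold higher, and its counting interval begins lower, at 1.41.

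miR-322-3p had the largest ratio among the 7 measured members. NCD held 18 counts of it and HFD 64, at 7.45 and 31.7 CPM, and it was 4.25-fold higher (2.49 to 7.63). Its log2 ratio of 1.95 stood above 90.2% of the measured named miRNAs and stayed past 2-fold under all 11 alternatives that gave a value, from 1.26 with a pseudocount of 10 CPM to 2.07. Its rank went from 287 to 223. In the authors' deposited table it had a log2 fold change of 1.93 and an FDR of 9.31e-05. miR-322-5p, the arm with the AGCAGCA seed, is the mouse counterpart of human miR-424-5p and has no entry here.

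**Figure D3:**
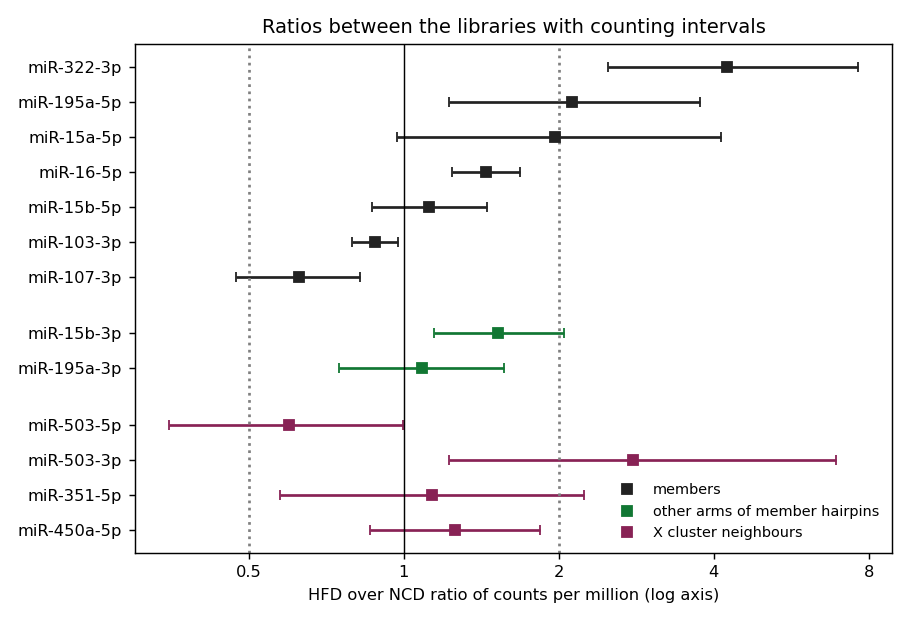
Ratio of HFD over NCD levels on a log axis, with 95% exact counting intervals, for the 7 measured members, the 2 measured other arms of their hairpins and 4 of the 5 measured neighbours of Mir322 on the X chromosome (miR-542-3p, with 0 counts in NCD, has no finite ratio and is left out). Dotted lines mark 2-fold either way, and the interval of miR-322-3p, from 2.49 to 7.63, lies wholly above it.

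Over the whole list, 2 of the 7 measured members were at least 2-fold higher, miR-322-3p and miR-195a-5p, and 0 were lower. Of all 387 measured named miRNAs, 25.3% were higher, 9.56% lower and 34.9% past 2-fold either way, so the members' count is near the background. The members' median log2 ratio was 0.53, that of miR-16-5p, against 0.33 for all measured named miRNAs. Both the count and this median include miR-322-3p, whose seed is unrelated, so they do not describe the seed-carrying members alone. With a minimum of 100 counts the members' median was -0.010. Counting intervals lay wholly above 1 for 3 members (miR-16-5p, miR-195a-5p and miR-322-3p) and wholly below 1 for 2 (miR-103-3p and miR-107-3p), and spanned 1 for 2 (miR-15a-5p and miR-15b-5p). Of all 387 measured named miRNAs, 47.5% had an interval wholly above 1 and 25.3% wholly below, so this count too is near the background. An FDR under 0.05 stood in the authors' deposited table for 2 of the 8 listed members, miR-322-3p and miR-107-3p, against 23.8% of named and 18.0% of all entries.

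**Figure D4:**
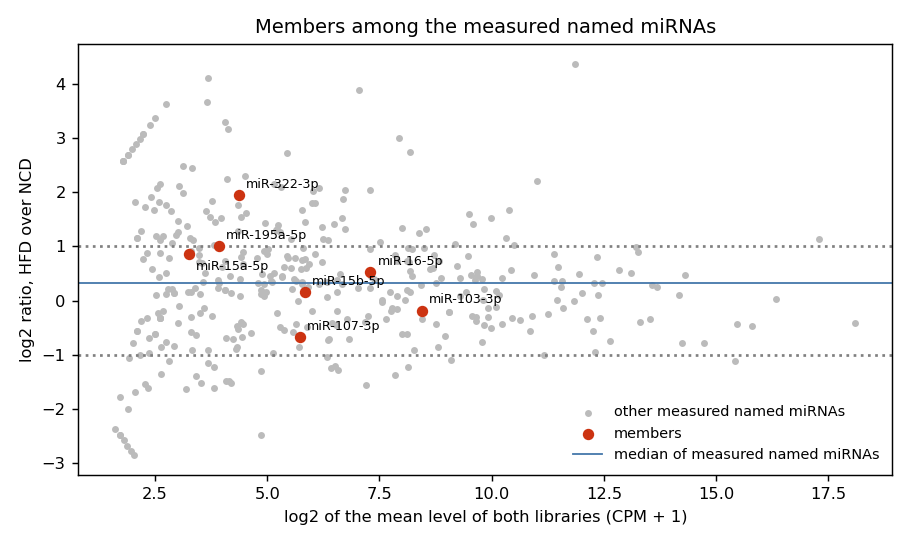
Log2 ratio of HFD over NCD (pseudocount 1 CPM) against the log2 of the mean level for the 387 measured named miRNAs in grey, with the 7 measured members in red. The blue line is the median of 0.33, the dotted lines mark 2-fold, and miR-322-3p at 1.95 is the member farthest from 0.

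The order of the levels was kept between the libraries except for swaps between neighbours in the order. In NCD miR-103-3p was followed by miR-16-5p, miR-107-3p, miR-15b-5p, miR-195a-5p, miR-322-3p and miR-15a-5p. The Poisson intervals of miR-107-3p (54.4 to 75.0 CPM) and miR-15b-5p (44.2 to 63.0) overlap there, as do those of the last 3. In HFD miR-15b-5p (49.2 to 71.0) stood above miR-107-3p (31.8 to 49.8), although the intervals still overlap, and miR-322-3p (24.4 to 40.4) overlapped with miR-107-3p. miR-322-3p also stood above miR-195a-5p in HFD, at 31.7 and 19.3 CPM, whereas in NCD it stood below, at 7.45 and 9.10 CPM. The interval of miR-195a-5p in HFD, 13.7 to 26.4 CPM, overlaps with those of its neighbours miR-322-3p and miR-15a-5p (7.21 to 17.1). The named miRNAs nearest to miR-16-5p over both libraries, by distance in log2(CPM + 1), were miR-199a-3p and miR-199b-3p, each at 134 and 184 CPM, and miR-181b-5p at 143 and 190 CPM. For miR-103-3p they were miR-339-5p at 393 and 309 CPM, miR-152-3p at 311 and 379 CPM and miR-532-5p at 273 and 306 CPM. Their distances ran from 0.068 to 0.44 log2 units, over 2 libraries only. Since miR-199a-3p and miR-199b-3p have the same values in both libraries, they may not be separate neighbours.

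The other arms of these hairpins, usually the less abundant strand of the duplex, were listed for 4 of 9 names. 2 were measured, and neither passed 2-fold. The hairpins of interest are shown 5′ to 3′ from RefSeq (GRCm38.p6), with both mature arms in capitals, to place the 5p and 3p products that the counts separate.
Mir15b: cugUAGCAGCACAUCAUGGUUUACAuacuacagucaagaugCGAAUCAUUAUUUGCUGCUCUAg
Mir195a: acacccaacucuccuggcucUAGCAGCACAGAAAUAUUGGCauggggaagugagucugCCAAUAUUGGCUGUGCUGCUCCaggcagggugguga
Mir322: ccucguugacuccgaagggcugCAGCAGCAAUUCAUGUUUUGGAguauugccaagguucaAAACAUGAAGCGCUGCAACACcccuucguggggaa
miR-15b-3p was almost as abundant as its seed-carrying partner, with 87 and 111 counts, or 36.0 and 54.9 CPM, a ratio of 1.53 (1.14 to 2.04). It took 40.5% of the counts of the hairpin in NCD (33.8 to 47.4) and 48.1% in HFD (41.5 to 54.7), intervals that overlap. Such even arms were uncommon. Of 110 named hairpins with both arms listed and at least 100 counts over arms and libraries, the less abundant arm held a median of 1.78% in NCD and 4.66% in HFD. It held as large a share as in Mir15b, that hairpin included, in 4 of the 110 in NCD and 2 in HFD.

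In Mir195a the arm without the AGCAGCA seed was the more abundant one. NCD held 65 counts of miR-195a-3p and HFD 59, at 26.9 and 29.2 CPM, against 22 and 39 of miR-195a-5p. It took 74.7% of the counts of the hairpin in NCD (64.3 to 83.4) and 60.2% in HFD (49.8 to 70.0), again with overlapping intervals. Its ratio of 1.09 (0.750 to 1.57) spans 1, and its log2 ratio turned below 0 with TMM and median-of-ratios factors. The rare arms of the miR-16 hairpins had 7 and 0 counts for miR-16-2-3p and 0 and 3 counts for miR-16-1-3p, so both were under the count minimum. miR-16-2-3p was 1.95-fold lower in HFD when HFD was set at 3 counts, and its counting interval begins nearer to 1, at 1.20. miR-15a-3p, miR-497a-3p, miR-103-1-5p, miR-103-2-5p and miR-107-5p are not among the entries analysed here.

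Mir322 shares its X chromosome group with Mir503, Mir351, Mir542 and the Mir450 hairpins, and 9 of 11 named arms of these neighbours were listed. These arms did not share a direction. miR-503-5p carries the related seed AGCAGCG and is known in mouse and human to restrain the cell cycle together with miR-322 or its counterpart. Its sequence is shown with bases 2 to 8 in capitals, for comparison with the members.
miR-503-5p: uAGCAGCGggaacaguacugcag
NCD held 48 counts of it and HFD 24, at 19.9 and 11.9 CPM, and it was 1.67-fold lower (1.004 to 2.85), whereas the other arm, miR-503-3p, had 9 and 21 counts and was 2.79-fold higher (1.23 to 6.92). miR-542-3p had 0 and 13 counts and was 5.18-fold higher when set against 3 counts in NCD, and its counting interval begins lower, at 3.65. The ratio of miR-351-5p, from 20 and 19 counts, was 1.14 (0.574 to 2.24). That of miR-450a-5p, from 57 and 60 counts, was 1.26 (0.862 to 1.84). The log2 ratio of miR-351-5p was negative under median-of-ratios scaling, and that of miR-450a-5p with the GC trend removed. Of the 5 measured neighbours 2 were higher, miR-503-3p and miR-542-3p, and 0 lower, and both came within 2-fold with a pseudocount of 10 CPM. The shares over all 387 measured named miRNAs were 25.3% higher and 9.56% lower, and 5 neighbours are too few to set their count apart. miR-542-3p reached the count minimum through HFD alone. The other 4 listed neighbours had 8 counts or fewer in either library, among them miR-351-3p with 0 and 8.

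**Figure D5:**
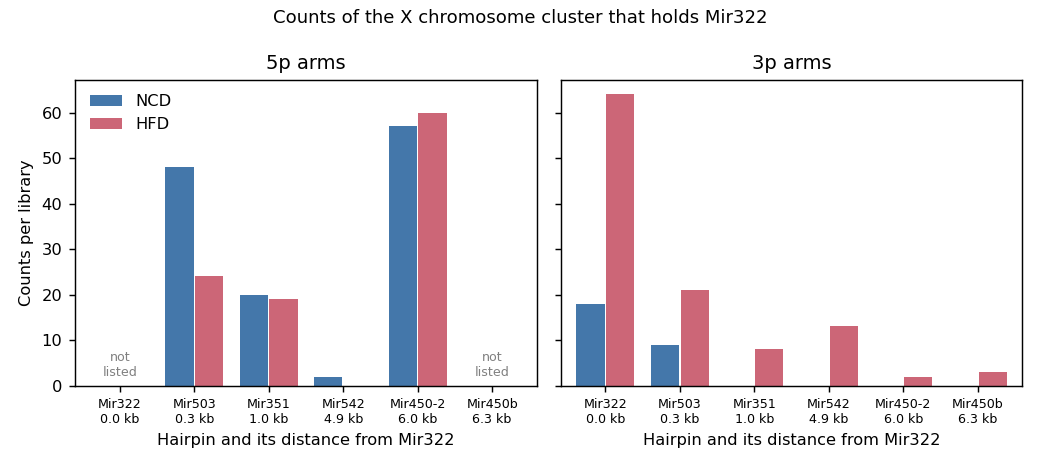
Counts per library of the 5p arms (left) and 3p arms (right) of the hairpins near Mir322, in order of distance from it in kb, NCD in blue and HFD in red. miR-450a-5p is made by 2 hairpins and is drawn once, and all 6 listed 3p arms have more counts in HFD, led by miR-322-3p with 18 and 64. Apart from miR-322-3p and miR-503-3p these 3p arms had 0 counts in NCD, so they could only be higher in HFD.

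Summed over the X chromosome group, the 4 listed 5p arms had 127 counts in NCD and 103 in HFD, a ratio of 0.970 (0.741 to 1.27). The 6 listed 3p arms, miR-322-3p included, had 27 and 111 counts and were 4.92-fold higher (3.21 to 7.79). The 3p arms thus took 17.5% of the counts in NCD (11.9 to 24.5) and 51.9% in HFD (45.0 to 58.7). Without miR-322-3p the shares were 6.62% (3.07 to 12.2) and 31.3% (24.0 to 39.4). This division by arm was chosen after the values had been seen, and its parts are few counts. miR-351-3p, miR-542-3p, miR-450a-2-3p and miR-450b-3p had 0 counts in NCD and are listed through HFD alone, so they could only be higher. Among the 5p arms miR-542-5p, with 2 and 0 counts, is listed through NCD alone and could only be lower. Over all named entries the 3p arms took 28.4% of the counts in NCD and 42.2% in HFD, a figure set by a few abundant miRNAs. Among the 110 hairpins above the 3p share was higher in HFD in 55 and lower in 55, and the median log2 ratio was 0.33 for 181 measured 5p arms and 0.37 for 180 measured 3p arms.

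Other mouse miRNAs in RefSeq with AGCAGC at base 1 or 2 are miR-195b, miR-6342, miR-6353 and miR-6419, besides miR-503-5p. None of these 4 is among the entries analysed here. The GC content of the seed-carrying members ran from 40.9% in miR-15a-5p, miR-15b-5p and miR-322-5p to 50.0% in miR-497a-5p. Among 180 named miRNAs with at least 100 counts and a RefSeq sequence, the log2 ratio fell by 0.39 for each 10 percentage points of GC content (r = -0.41 across miRNAs of the same 2 libraries, given as a description). miR-103-3p and miR-107-3p, at 47.8%, lie close to the median GC content of 47.6%, and with that trend removed their summed log2 ratio was -0.24 in place of -0.25, against 0.36 in place of 0.50 for the miR-15/16 seed group.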

How the data were processed

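Sequencing libraries of exosomal total RNA came from an NEBNext kit for small RNA, per the labels' protocols. The deposited table gives, per the file headers, a raw count per entry and library, a TPM value, a p-value with an FDR, and a log2 fold change. The authors' TPM values equal counts per 1000000 counts of the table. Per the submitters' processing notes the genome build was GRCm38. The aligner, caller and test: not given in the sources used here. edgeR 4.0.16 (exact test, TMM, coefficient of variation set to 0.1) gave the deposited p-values and log2 fold changes back, to within 6.55e-15 in p.

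CPM, log2 ratios (pseudocount 1 CPM, at least 10 counts in the larger library) and exact intervals (SciPy 1.17.1, Clopper-Pearson on the sum of both counts; Poisson for levels) were computed from counts. PCR copies cannot be told from separate molecules, so intervals cover counting error only. No test was run between single libraries. The ratio rule was run on simulated data with counting error only, for entries with a mean of at least 100 counts. miR-322-3p and miR-195a-5p, the members past 2-fold, had fewer counts, so the simulation does not cover them. Members, lists and the naming rule (all members, other arms of their hairpins, neighbours of Mir322, RefSeq miRNAs with AGCAGC at base 1 or 2, and the 3 nearest miRNAs to the most abundant member of each seed group) were chosen with earlier results of these data known. Of the 677 names, 595 matched a RefSeq mature sequence. Alternatives were TMM factors, median-of-ratios factors (DESeq2 1.42.0), the TPM as deposited, totals of named miRNAs only or leaving out the 5 most abundant, pseudocounts of 0.1 and 10 CPM, count minimums of none or 100, near-identical members summed (miR-103-3p with miR-107-3p, miR-15a-5p with miR-15b-5p), and the linear GC trend removed. The median-of-ratios factors were 1 in both libraries, so that alternative compares counts without correction for the library totals. The sum of miR-16-5p with miR-195a-5p was added after seeing the data.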

Additional observations from a re-analysis of the deposited data

How the results depend on the processing

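The count of 2 members at least 2-fold higher became 1, without miR-195a-5p, with TMM factors, median-of-ratios factors, totals without the 5 most abundant miRNAs, a pseudocount of 10 CPM, the GC trend removed and, chosen after seeing the data, miR-195a-5p summed with miR-16-5p. Without a count minimum it was 3, through miR-497a-5p, and 0 with a minimum of 100 counts, which leaves 4 members. The count of members at least 2-fold lower was 0 under each of the 12 alternatives. The members' median log2 ratio was 0.27 with median-of-ratios factors and -0.010 with the minimum of 100 counts, which leaves out the 3 rarest measured members. The summed log2 ratio was 0.25 for the miR-15/16 seed group with median-of-ratios factors, and -0.39 and -0.50 for miR-103-3p with miR-107-3p with TMM and median-of-ratios factors. These 2 scalings moved the median of the measured named miRNAs by -0.14 and -0.25, so that the changes of the groups relative to it were about the same. No called value changed sign. No library could be left out, and no paired analysis was possible because there is 1 library per diet. Depth limits miR-15a-5p, miR-195a-5p, miR-497a-5p and the arms near Mir322, which rest on fewer than 70 counts a library.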
